A study of Mus musculus with 3 samples.

Results

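Genes that mark naive or resting T cells were followed across RNA sequencing libraries of mouse T-helper 1 (Th1) cells, a CD4 T cell lineage. The 9 genes are Tcf7, Lef1, Foxo1, Klf2, Bach2, Satb1, Il7r, Ccr7 and S1pr1, taken by symbol from a fixed list, and all 9 were found among the 50600 genes of the count tables. The series holds a single group of 3 libraries from primary Th1 cells of strain C57BL/6NJ, numbered as biological replicates 1, 2 and 3. No naive, untreated or other T cell sample was measured, so every value below is a level in Th1 cells and none is a change from the naive state. The labels give each library its own biosample and all of them 1 donor entry, with age and sex not recorded. They do not state whether cells of separate animals or cultures were used, so the spread between libraries may be technical in part. The file headers add 24 hr to each library name, and do not say what the time is counted from.

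Naive T cells persist without dividing and recirculate between blood and lymph nodes. The forkhead factor Foxo1 is active when phosphatidylinositol 3-kinase and AKT signalling is low, and it is known to maintain Klf2, Il7r and Ccr7. Klf2 in turn maintains S1pr1, the receptor that lets lymphocytes leave lymph nodes, while Tcf7 and Lef1 encode related HMG-box factors of T cell identity, and Bach2 and Satb1 encode a repressor of effector genes and a chromatin organiser. Antigen stimulation is known to reduce many of these transcripts in T cells.

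Library totals, the read pairs assigned to genes, were 3553547, 2945353 and 3369468 in replicates 1, 2 and 3. They do not give the number of read pairs sequenced. The labels call the assay total RNA but link a protocol for polyadenylated RNA. Counts were made on the strand selected by strand option 1, but the sources used here do not say whether that is the strand of the mRNA. In the mitochondrial genome mt-Nd6, alone among 13 mRNA genes on its strand, had 15.1, 23.3 and 18.2 times the counts per kb of the highest of the other 12. Of those 12, 6 had at most 3 counts in every library. Genes sharing exon bases with an opposite-strand gene held 68% of the counts in replicate 1, 77.5% in replicate 2 and 70.3% in replicate 3, so replicate 2 stood apart. The part of the strand setting in the levels below was not tested, and each level is that of the counted strand. All 14 T cell identity genes were detected, among them Cd4 at 105.4 ± 29.7 TPM (SD, n = 3). TPM is a gene's share of the summed counts per exon length over all genes, on the counted strand only. It need not equal a share of the library's transcripts, and it depends on which genes are summed. Tcf7, for example, had a mean of 104.7 TPM over all genes and 257.6 over protein-coding genes. Over genes without opposite-strand exon overlap it had 527.3. The defining Th1 genes were low: Tbx21 had 15, 11 and 8 counts, and Ifng had 2, 2 and 1 counts.

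Mean levels of the members ran from 0.943 TPM for S1pr1 to 104.7 TPM for Tcf7. Of the 9, 7 reached 1 TPM or more in every library, against 41.2% of protein-coding genes and 22.5% of all annotated genes. Klf2 and S1pr1 each fell below that level in 1 library. The median over the 9 members was 7.22, 4.36 and 5.29 TPM in replicates 1, 2 and 3, against medians of 0.449, 0.31 and 0.399 TPM over 21764 protein-coding genes. Among genes with enough counts for testing, the medians were 16, 8.86 and 14.2 TPM over 7 members, those of Bach2, against 12.4, 7.76 and 10.8 TPM over 8620 protein-coding genes.

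**Figure D1:**
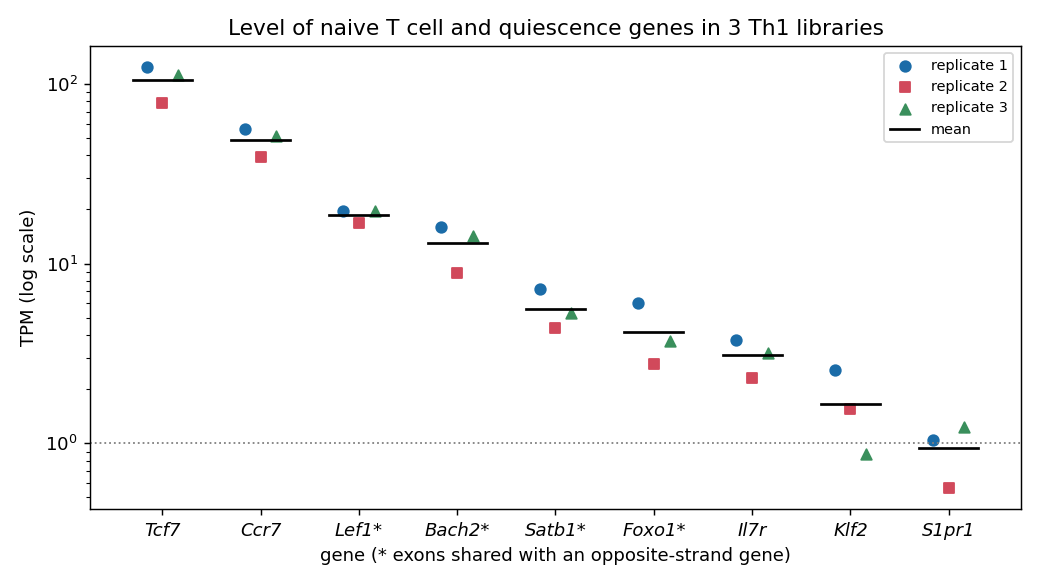
TPM on a log axis for each of the 9 genes, ordered by mean; points are the 3 libraries, horizontal bars their mean, the dotted line 1 TPM, and asterisks mark genes that share exon bases with an opposite-strand gene. Tcf7 at 78.2 to 124.1 TPM stands above Ccr7 at 39.3 to 56.1 TPM, and Klf2 and S1pr1 lie around 1 TPM.

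Tcf7, which encodes TCF-1, was the highest member. The gene (ENSMUSG00000000782, mm10 chromosome 11, 52252371 to 52283014, minus strand) had 619, 359 and 548 counts in replicates 1, 2 and 3, or 124.1, 78.2 and 111.7 TPM. Replicate 2 was the low one, and even there Tcf7 exceeded every other member in any library. Its mean of 104.7 ± 23.7 TPM was higher than that of 97.1% of protein-coding genes. The antisense gene A630014C17Rik runs across the start of Tcf7 without sharing exon bases and had 61, 63 and 53 counts. Lef1 (ENSMUSG00000027985, chromosome 3, 131110471 to 131224356, plus strand) had 329, 258 and 324 counts, or 19.7, 16.8 and 19.7 TPM. Its libraries lay closest together of all members, with a coefficient of variation of 9%. Tcf7 was 6.3, 4.66 and 5.66 times as high as Lef1 in TPM, and their ranges did not overlap. This ratio depends on the length used, since the annotated exons of Lef1 total 2.52 times its longest protein-coding transcript, against 1.06 times for Tcf7. Per base of the longest transcript, Tcf7 stood at 111.2 ± 25.2 TPM and Lef1 at 47.3 ± 4.26 TPM.

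Within the TCF/LEF family, whose members share an HMG box that binds DNA, nearly all of the counted level came from this pair. Tcf7 took 84.2% ± 2.18 and Lef1 15.4% ± 1.99 of the summed TPM of the 4 family genes (SD, n = 3). These shares use annotated exon lengths, and the Lef1 share would be larger at transcript length. Tcf7l1 had 2, 4 and 5 counts, and Tcf7l2 had 0, 0 and 1 count. Of 14 measured genes that work with these factors, 10 were detected, and the Tle5 entry of that list had no match in the annotation. Ctnnb1, which encodes the coactivator beta-catenin, stood at 22.7 ± 7.34 TPM (opposite Ulk4), Axin1, a scaffold of its destruction complex, at 17.4 ± 3.06 TPM and the corepressor gene Tle3 at 8.43 ± 2.25 TPM. Axin2, a widely used target gene of this pathway, stood at 3.92 ± 0.984 TPM and shares exon bases with Gm11670.

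Foxo1 was among the lower transcription factor genes. Its counts (ENSMUSG00000044167, chromosome 3, 52268336 to 52353221, plus strand) were 99, 42 and 60, or 6.01, 2.77 and 3.71 TPM, with replicate 1 the high one. Of the FOXO genes, Foxo4 was the highest, at 26.9, 27.6 and 31.5 TPM, followed by Foxo3 at 9.87, 4.23 and 7.07 TPM, and Foxo6 had no counts. Foxo1 thus made up 10.3% ± 3.29 of the FOXO total and Foxo4 72.4% ± 8.64. The order Foxo4 above Foxo3 above Foxo1 held in each of the 3 libraries. Neither Foxo3 nor Foxo4 shares exon bases with an opposite-strand gene, whereas Foxo1 does. Of 13 genes listed for the signalling that controls Foxo1 and Klf2, 12 were detected. Akt1, a kinase that phosphorylates Foxo1 and so removes it from the nucleus, stood at 50.4 ± 14.4 TPM. Pik3cd, the lymphocyte catalytic subunit upstream of it, stood at 31.2 ± 10.6 TPM and Ywhaz, a 14-3-3 protein gene, at 26.8 ± 7.17 TPM. Sgk1, another kinase of FOXO factors, had 1, 0 and 1 count.

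Klf2 and S1pr1 were the lowest members. Klf2 (ENSMUSG00000055148, chromosome 8, 72319033 to 72321656, plus strand) had 9, 5 and 3 counts, or 2.56, 1.55 and 0.869 TPM. With 17 counts over the libraries and an exact Poisson 95% interval of 9.9 to 27.2, this level is known only roughly. Replicate 3 was at the 3 counts that a count of 0 allows. Klf2 was 9.07% ± 4.23 of the summed TPM of 6 KLF genes, in which Klf6 at 6.23 ± 1.79 TPM and Klf13 at 5.88 ± 1.37 TPM were highest. Map2k5 and Mapk7, kinase genes of the ERK5 route that induces Klf2 through MEF2 factors, stood at 5.29 ± 0.851 and 2.66 ± 1.05 TPM (Mapk7 opposite Mfap4), and Mef2d stood at 14.7 ± 1.15 TPM (opposite 1700113A16Rik).

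S1pr1 (ENSMUSG00000045092, chromosome 3, 115710433 to 115715072, minus strand) had 6, 3 and 7 counts, or 1.04, 0.563 and 1.23 TPM. Its total of 16 counts has an exact Poisson 95% interval of 9.15 to 26, and replicate 2 was at the floor of 3 counts. Klf2 and S1pr1 could not be ordered with so few counts, since Klf2 was the higher in 2 of 3 libraries. Among the 5 receptors of sphingosine 1-phosphate, S1pr4 took 80.8% ± 5.68 of the summed TPM and S1pr1 13.1% ± 5.2, while S1pr3 had no counts. S1pr4 had 19, 25 and 35 counts, above S1pr1 in every library, and its TPM range of 4.19 to 7.85 did not overlap that of S1pr1. Cd69, whose protein binds S1PR1 and removes it from the cell surface, stood at 15.1 ± 6.08 TPM.

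Ccr7 was the second highest member and stood far above S1pr1. Ccr7, the receptor for lymph node entry (ENSMUSG00000037944, chromosome 11, 99144196 to 99155077, minus strand), had 211, 136 and 189 counts, or 56.1, 39.3 and 51.1 TPM. In TPM it was 54.2, 69.8 and 41.6 times as high as S1pr1 in replicates 1, 2 and 3. The lowest Ccr7 library was thus far above the highest S1pr1 library, and the ratio rests on few S1pr1 counts. Of 16 listed genes of S1P signalling and homing, 9 were detected. The signalling subunit Gnai2 stood at 59 ± 12.4 TPM, the integrin gene Itgal at 54.6 ± 17 TPM and the arrestin gene Arrb2 at 24.7 ± 5.72 TPM. The chemokine genes Ccl19 and Ccl21a, which encode the CCR7 ligands made by stromal cells, had no counts.

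Il7r, the receptor chain for the survival cytokine interleukin 7, was low. The gene (ENSMUSG00000003882, chromosome 15, 9506161 to 9529876, minus strand) had 23, 13 and 19 counts, or 3.77, 2.32 and 3.17 TPM. Its partner chain gene Il2rg stood at 22.2 ± 7.04 TPM, the kinase genes Jak1 and Jak3 at 30.4 ± 9.29 (opposite Raver2) and 13.6 ± 4.65 TPM, and Mcl1, a survival gene, at 41.5 ± 17.7 TPM. The alternative partner of Il7r, Crlf2, had 29, 14 and 8 counts, and Il7 itself had none. Of the 10 genes of this axis 9 were detected.

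Bach2 and Satb1 lay in the middle of the order. Bach2 (ENSMUSG00000040270, chromosome 4, 32238804 to 32586108, plus strand) had 303, 154 and 263 counts, or 16, 8.86 and 14.2 TPM, with replicate 2 the low one. It made up 95.4% ± 1.88 of the summed TPM with its relative Bach1, which had 5, 5 and 11 counts. Among small MAF genes, whose proteins pair with BACH factors, Maff stood at 32.6 ± 2.99 TPM, Mafk at 11.1 ± 3.73 TPM (opposite Tmem184a) and Mafg at 6.08 ± 2 TPM. Prdm1, the effector regulator that Bach2 is known to repress, had 1, 4 and 1 counts. Satb1 (ENSMUSG00000023927, chromosome 17, 51736187 to 51833290, minus strand) had 261, 145 and 188 counts, or 7.22, 4.36 and 5.29 TPM. The chromatin genes Chd4 and Hdac1, whose proteins SATB1 is known to recruit, stood at 96.8 ± 16.2 and 51.4 ± 10.4 TPM.

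**Figure D2:**
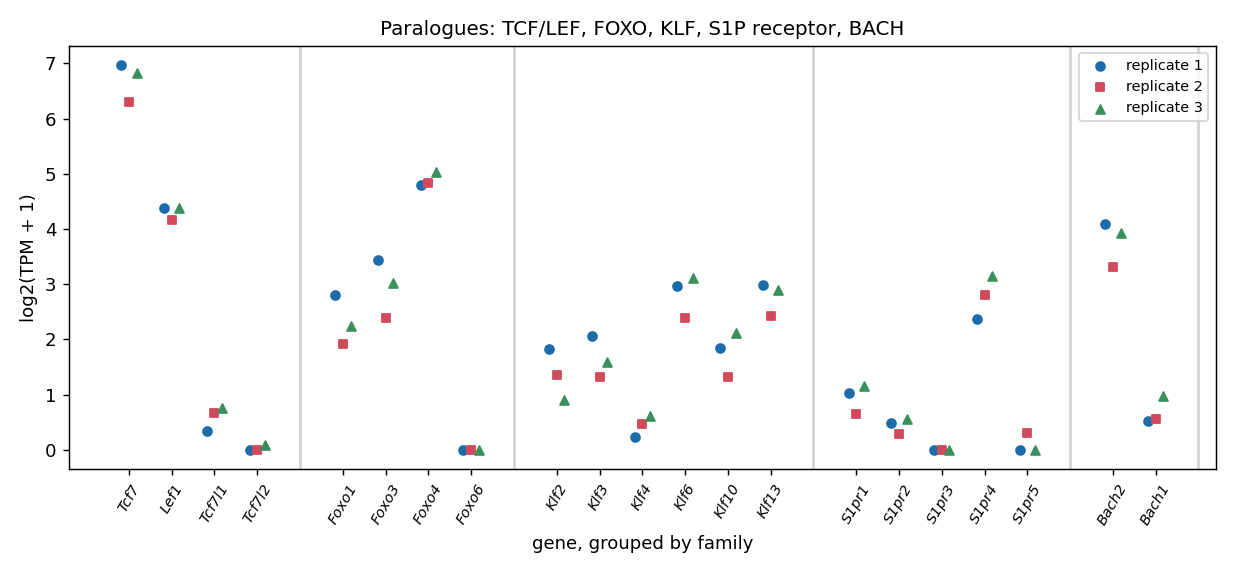
log2(TPM + 1) for the members and their relatives in 5 gene families, with 1 point per library. Tcf7 is the highest TCF/LEF gene, Foxo4 the highest FOXO gene and S1pr4 the highest S1P receptor in every library.

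The order of mean TPM was Tcf7, Ccr7, Lef1, Bach2, Satb1, Foxo1, Il7r, Klf2 and S1pr1. The first 5 were separated, in that the library ranges of neighbours did not overlap: Tcf7 was 2.21, 1.99 and 2.18 times as high as Ccr7, Ccr7 was 2.85, 2.34 and 2.59 times as high as Lef1, and Bach2 was 2.22, 2.03 and 2.68 times as high as Satb1. Lef1 and Bach2 were close, with lowest and highest values of 16.8 and 19.7 TPM for Lef1 and 8.86 and 16 TPM for Bach2. From Satb1 downward the ranges of neighbours overlapped. Within libraries Satb1 was above Foxo1, Foxo1 above Il7r and Il7r above Klf2 in 3 of 3. The order depended on the length used for Satb1, whose annotated exons total 19027 bases, 3.05 times its longest protein-coding transcript of 6243 bases. Per base of the longest transcript, Satb1 stood at 17.1 ± 4.44 TPM and Bach2 at 14.6 ± 4.16 TPM, which reverses their order, and Lef1 rose to 47.3 ± 4.26 TPM beside Ccr7 at 48.9 ± 8.63 TPM.

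Of the 9 members, 4 share exon bases with a gene on the opposite strand, as do 22.1% of protein-coding genes. All 4 are among the 7 tested members, and of tested protein-coding genes 35.3% share exon bases in this way. For Lef1, Foxo1 and Bach2 the opposite gene is annotated as antisense and had more counts per kb than the member. For Satb1 the opposite gene was lower on average. Which RNA the counts of such a pair come from cannot be told apart in gene totals, and the part of the strand setting in these counts was not tested. Lef1 had 34.6 ± 4.51 counts per kb, against 254.7 ± 23.9 for Gm43352 (ENSMUSG00000106086, chromosome 3, 131109026 to 131112090), which had 705, 786 and 851 counts. The ratio of Gm43352 to Lef1 was 6.14, 8.73 and 7.53 in replicates 1, 2 and 3. They share 1208 bases, of which 1001 are untranslated and 207 coding in Lef1.

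Foxo1 and Bach2 had wider gaps. Foxo1 had 7.73 ± 3.36 counts per kb, against 693.4 ± 59 for Gm20402 (ENSMUSG00000092405, chromosome 3, 52268435 to 52269435), with 430, 494 and 505 counts. Of the 687 exon bases of Gm20402, 674 lie on Foxo1 exons, 307 of them coding. Gm20402 thus had more counts than the whole of Foxo1, whose exons total 8665 bases, in each library. Per kb the ratio to Foxo1 was 54.8, 148.4 and 106.2. Bach2 had 24.1 ± 7.76 counts per kb, against 998.2 ± 67.9 for Bach2os (ENSMUSG00000086150, chromosome 4, 32559680 to 32571708), with 2350, 2102 and 2085 counts. Their 537 shared bases are all coding in Bach2 and make up 24.6% of the Bach2os exons, and the ratio to Bach2 was 35.3, 62.2 and 36.1. All 3 ratios were highest in replicate 2, where each of these members was lowest in TPM and the share of counts on overlapped genes was highest.

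**Figure D3:**
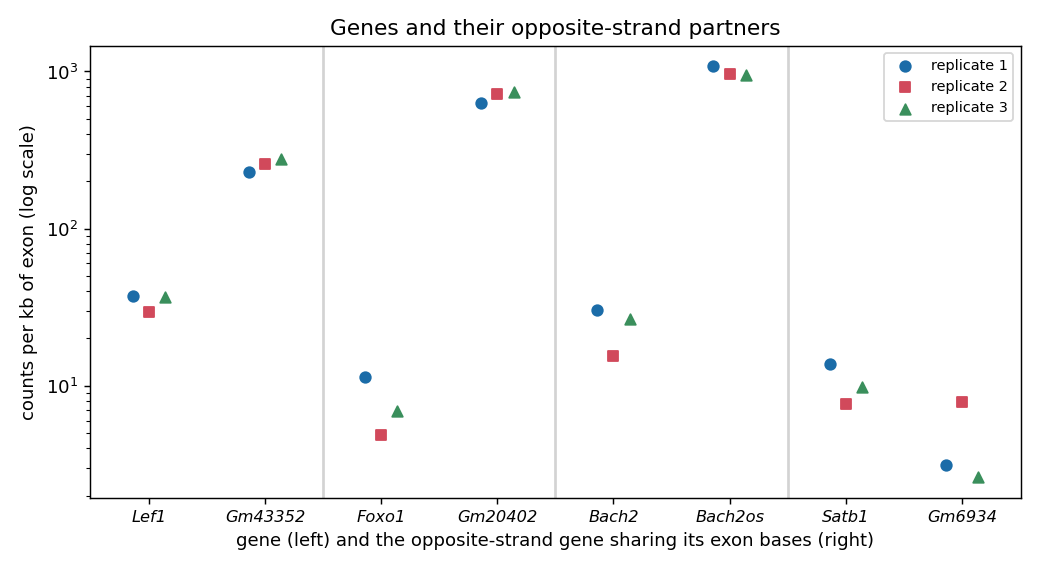
Counts per kb of exon, on a log axis, for the 4 members that share exon bases with an opposite-strand gene, each beside that gene; points are the 3 libraries. Gm43352, Gm20402 and Bach2os lie above Lef1, Foxo1 and Bach2 in every library, while Gm6934 lies below Satb1 in replicates 1 and 3 and beside it in replicate 2.

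Satb1 had 10.4 ± 3.08 counts per kb, against 4.55 ± 2.89 for Gm6934 (ENSMUSG00000103753, chromosome 17, 51832819 to 51834723), with 6, 15 and 5 counts, and the 128 shared bases are untranslated in Satb1. Satb1 also shares 156 coding bases with Gm36931 on its own strand, which had 0, 0 and 1 count. RefSeq gives Lef1 4 starts and Satb1 5. A promoter of each is shown because its 250 bases lie wholly inside an opposite-strand exon of Gm43352 or Gm6934, so that counts of those genes include any read pairs from these bases on their strand. The same holds for 1 other Lef1 window, while the next Satb1 window has 79 bases inside and the remaining windows have none. The windows are GRCm38.p6 chr3:131110047-131110296 (plus strand) for Lef1 and chr17:51833291-51833540 (minus strand) for Satb1, and capitals mark the GC box:
Lef1: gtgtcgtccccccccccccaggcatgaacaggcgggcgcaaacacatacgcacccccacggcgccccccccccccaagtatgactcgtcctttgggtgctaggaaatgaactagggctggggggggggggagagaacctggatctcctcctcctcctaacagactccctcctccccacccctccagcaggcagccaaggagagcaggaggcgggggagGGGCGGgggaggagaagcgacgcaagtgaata
Satb1: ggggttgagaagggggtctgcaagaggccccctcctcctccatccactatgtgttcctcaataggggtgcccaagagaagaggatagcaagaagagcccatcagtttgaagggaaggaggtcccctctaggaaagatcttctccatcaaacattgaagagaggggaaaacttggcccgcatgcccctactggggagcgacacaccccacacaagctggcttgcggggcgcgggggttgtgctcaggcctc
The Lef1 window carries 1 GC box, the letters GGGCGG bound by SP and KLF factors, and the printed Satb1 window none, while another Satb1 window carries 3. Chosen after the sequences were seen, the GC box occurs in 8 of the members' 15 windows and in 32.7% of all 32851 windows of this length, read on both strands. The printed Lef1 window overlaps 1 other Lef1 window, and the same GC box is counted in both. Per gene it occurs in 5 of 7 members and in 35.4% of all genes with windows. The 7 members had 15 windows in all, and Ccr7 and S1pr1 had none. No window of a member held the FOXO letters GTAAACA or the TCF/LEF letters CTTTGAT or CTTTGAA on either strand, which occur in 3.17%, 3.21% and 4.46% of all windows. The KLF letters CCACACCC were in 1 member, Tcf7, of 7 and in 3.68% of all genes with windows. No matches of different motifs overlapped in the printed windows.

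The libraries were then compared, since with 1 group only the spread between libraries can be tested. Each gene's 3 counts were set against Poisson counting error by a chi-square test at library sizes scaled by TMM, a trimmed-mean scaling, with Benjamini-Hochberg adjustment over 10216 genes. Of the 7 members with enough counts, 0 passed at 0.05, while 35.6% of the tested genes did, and Klf2 and S1pr1 were not tested. At an unadjusted p under 0.05 there were 2, Foxo1 (chi-square test, p = 0.0198, adjusted p = 0.0546) and Lef1 (chi-square test, p = 0.0404, adjusted p = 0.0966). Foxo1 had 25, 16.7 and 17 CPM (counts scaled to library size) at these sizes, so replicate 1 was high, and Lef1 had 83, 102.4 and 91.8 CPM. Ccr7 was the most even, with 53.2, 54 and 53.6 CPM (chi-square test, adjusted p = 0.995). Tcf7 had 156.1, 142.4 and 155.3 CPM (chi-square test, adjusted p = 0.47). With library totals in place of TMM, Tcf7, Foxo1, Bach2 and Satb1 passed the test, with adjusted p of 1.84e-06, 0.00109, 1.61e-05 and 0.000687 by chi-square, and without replicate 3 Lef1 did (chi-square test, adjusted p = 0.033).

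The antisense partners Gm43352, Gm20402 and Bach2os each passed at TMM sizes (chi-square test, adjusted p = 2.17e-25, 1.56e-17 and 4.46e-36), as did 53% of tested genes with opposite-strand overlap. They have more counts than their members, and the difference between partner and member was not tested. In TPM, 8 of 9 members were lowest in replicate 2, and the exception was Klf2. The share of all tested genes lowest there in TPM was not counted, so this is not a trait of the members alone. The median difference of replicate 2 from the mean of replicates 1 and 3 was -0.58 on the log2 TPM scale over the 7 tested members. Over all tested genes it was -0.49, over those without opposite-strand exon overlap -0.65 and over those with it -0.07. At TMM sizes the members' median was -0.12 and that of all tested genes -0.03. Of the 7 members, 4 were lowest in replicate 2, against 42.6% of tested genes. The 2 classes differed: tested genes without overlap had a median of -0.18, with 57.5% lowest in replicate 2. Those with overlap had a median of 0.39, with 22.5% lowest there. The 7 members are 3 without and 4 with overlap. With library totals the median over all tested genes was -0.37. The 4 overlapped members, Lef1, Bach2, Satb1 and Foxo1, lay at -0.23, -0.77, -0.5 and -0.77 in log2 TPM, each below the median of tested genes with overlap. Whether the strand setting or the library moved these values was not tested.

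**Figure D4:**
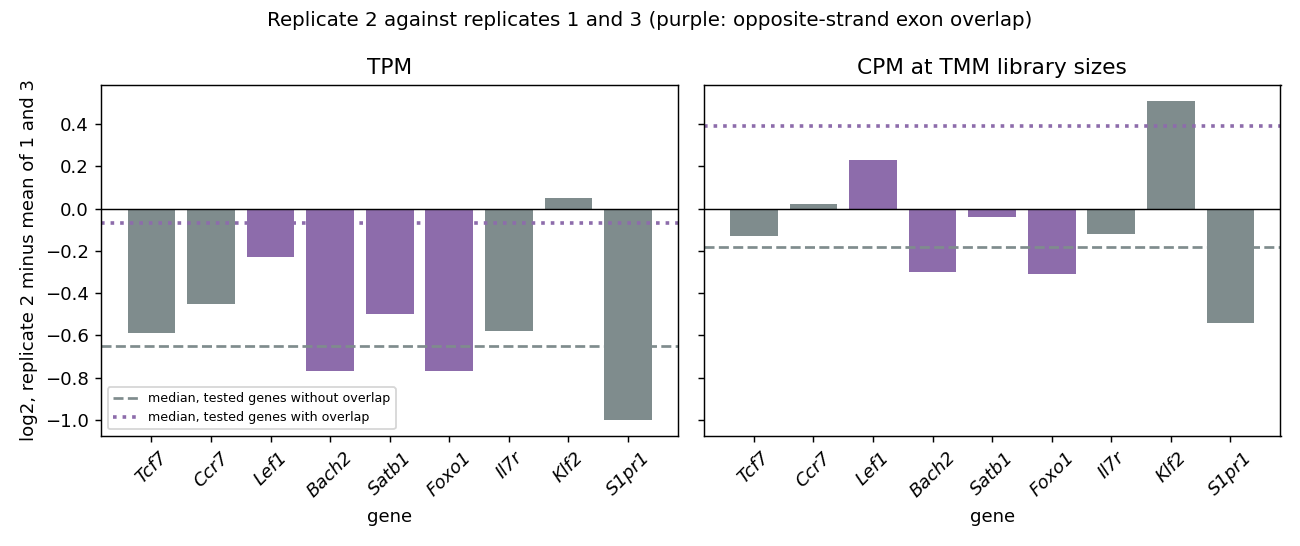
log2 difference of replicate 2 from the mean of replicates 1 and 3 for each member, in TPM (left) and in CPM at TMM library sizes (right); purple bars are members with opposite-strand exon overlap, and lines are medians of tested genes with and without overlap. In TPM 8 of 9 bars lie below 0, and at TMM sizes the bars lie on both sides of 0.

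Further genes of the naive and memory program had a median level of 6.28 ± 0.944 TPM, with 16 of 20 detected. Dapl1, which naive T cells are known to express, stood at 104.6 ± 36 TPM, Ikzf1 (Ikaros) at 75.6 ± 22.6 TPM and Id3, an inhibitor of E proteins, at 57 ± 19.5 TPM, while Ly6c1 had no counts. Of these genes 16 passed the filter and 7 of them varied between libraries, against 35.6% of all tested genes and 22.7% of those without overlap. Among the 7, Pik3ip1 and Actn1 share exon bases with an opposite-strand gene and the others do not. For quiescence and growth-brake genes the median level was 7.27 ± 2.79 TPM, and 23 of 25 reached detection. Slfn2, which is known to keep mouse T cells quiescent, stood at 114.3 ± 40.9 TPM, Foxo4 at 28.6 ± 2.48 TPM and Cnot3, a deadenylase subunit gene, at 27 ± 3.76 TPM (opposite Leng1). The antiproliferative gene Btg1 stood at 16.9 ± 7.19 TPM, and Cdkn1b, the gene of the cell cycle inhibitor p27, at 2.59 ± 0.518 TPM. Of 22 tested quiescence genes 6 varied, a share below that 35.6% and above that 22.7%. None of the 6 shares exon bases with an opposite-strand gene. These shares were not matched for overlap or counts.

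Genes of activation and proliferation were counted beside these. The 9 members had a median of 5.62 ± 1.46 TPM and these genes one of 19.4 ± 6.6 TPM, with 17 of 20 detected. Il2, the T cell growth factor gene, stood at 264.9 ± 118.4 TPM, the replication clamp gene Pcna at 193.4 ± 61.5 TPM and Tnfrsf4, which encodes OX40, at 164.5 ± 70.3 TPM. Tcf7 with 104.7 ± 23.7 TPM stood beside Myc with 102.5 ± 26.7 TPM and Mki67 with 117.3 ± 21.2 TPM in the same libraries. Of 15 tested activation genes 11 varied between libraries, against 35.6% of all tested genes and 22.7% of those without overlap. Of the 15, 8 varied and were lowest in replicate 2, against 11% of all tested genes and 15.1% of those without overlap. Such shares were not matched for counts, and a gene with more counts passes this test more easily. At TMM sizes within genes without overlap, 12% of that class varied, and the activation genes were not counted at that scaling. Fewer cells with a transcript and less transcript per cell cannot be told apart in bulk RNA, so high Tcf7 and Ccr7 beside Mki67 need not lie in the same cells.

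Markers of other cell types were detected in part. B cells also express Bach2, Ccr7, Foxo1 and Klf2: of 6 B cell markers 2 were detected. Ms4a1 had no counts, Pax5 and Cd79b had at most 1 count in any library, Cd79a stood at 7.34 ± 0.653 TPM and Ighm at 46.4 ± 14.6 TPM, and their summed level ranged from 37.2 to 64.1 TPM. The CD8 chain gene Cd8b1 reached 10.4 ± 2.64 TPM, while Cd8a was read once per library. Of 5 NK markers 4 had no counts. Of 5 dendritic markers Xcr1 alone was detected, at 1.18 ± 0.23 TPM. Of 7 myeloid markers Csf1r (160 ± 6.06 TPM, opposite Hmgxb3) and Ctss (18.9 ± 8.29 TPM) were detected and 4 had no counts. Of 4 regulatory T cell markers 3 were detected: Foxp3 stood at 119.7 ± 1.67 TPM and shares exon bases with Ccdc22 and Gm36995 on the other strand, and Ikzf2 had 6, 3 and 11 counts. Of 5 stromal markers 2 were detected, with a summed level of 13.3 to 16.1 TPM. The part of such cells in the members' levels was not tested.

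Protein-coding genes with the closest levels were found by Euclidean distance of log2(TPM + 1) over the 3 libraries, which measures likeness of level only. Nearest to Tcf7 were Clta (103.9 ± 21 TPM, distance 0.0629) and Hcls1 (105.4 ± 26.8 TPM, distance 0.0667). Nearest to Ccr7 were Smarca4 and Lat, at distances of 0.0433 and 0.0441. For Lef1 they were Aida and Lig3, both overlapped on the opposite strand as Lef1 is, and for Bach2 they were Btaf1 and Ylpm1. With 3 libraries of 1 group, many genes lie this close.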

How the data were processed

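RNA of 3 Th1 libraries was sequenced. The authors deposited unnormalised counts, in which each read pair adds 1 to its gene. FeatureCounts is the counter per the file headers, version 1.4.6-p4, run on exons of GENCODE release M13, with both ends aligned and strand option 1. The build is mm10 per the labels, and the sources used here name no library kit. TPM, CPM and overlaps of merged exons were computed here from the deposited counts, lengths and coordinates. Symbols and coding parts came from GENCODE release M21, by identifier (50376 matched, 224 did not), and promoter sequences from RefSeq on GRCm38.p6.

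Variation was tested with a chi-square test against Poisson error (2 degrees of freedom) at TMM sizes over genes passing edgeR's filterByExpr. The test was tried on simulated counts with Poisson error alone at these sizes. Such counts lack any further spread between libraries, so they do not show how the test fares here. DESeq2 gave alternative size factors. Software was R 4.3.3, edgeR 4.0.16, DESeq2 1.42.0 and Python 3.11.15 with scipy 1.17.1, pandas 2.3.3 and numpy 2.4.6.

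The floor for a gene without counts was set at 3 counts: 0.844 CPM in replicate 1, 1.02 CPM in replicate 2 and 0.89 CPM in replicate 3. Intervals and floors cover counting error only. The 9 members and all lists were chosen with earlier results of these data known. Named genes were the members, opposite-strand genes sharing their exon bases, the 3 highest of each list and its genes at 0, and the nearest genes by level. Genes beyond that rule, and the gene families, were chosen after their values were seen.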

Additional observations from a re-analysis of the deposited data

How the results depend on the processing

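No paired analysis was possible because all libraries belong to 1 group. No member varied at TMM sizes, at DESeq2 size factors, without a filter, or at TMM sizes within genes without overlap, where only Tcf7, Ccr7 and Il7r were tested. With library totals 4 did. Leaving out each replicate gave 0 to 1. Over all genes 3641 varied, against 704 within genes without overlap (5854 tested), and 968 to 3839 with 1 replicate left out, where 968 is without replicate 2. At 5 TPM in every library 4 members were detected in place of 7, and 7 to 8 with 1 replicate left out. The median level of the members moved with the unit, from 5.62 TPM to 13.8 over protein-coding genes, 28.3 over genes without overlap, 3.09 and 3.1 as FPKM at TMM and DESeq2 sizes, and 14.6 at transcript length. With 1 replicate left out it was 4.82 to 6.25. Levels of single members moved by under 1 SD in 36 cases and by more in 36. The order of the members held in all of these but transcript length. At transcript length, the overlap minimum of 200 shared bases and scaling within genes without overlap, the choice was made after seeing the data. S1pr1 and Klf2, with 16 and 17 counts, were tested only without the filter (chi-square test, adjusted p = 0.816 and 0.525), and counts this few show only wide differences.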
